A study of Mus musculus with 28 samples.

Results

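The 57 genes described here act in the G2 phase of the cell cycle and in mitosis. They were taken by gene symbol from a list of genes of these steps; the rule sets no threshold on a measured value, but the list was drawn up with earlier results of these data known. All 57 were among the 25124 genes in the table. In 7 roles, they comprise 11 kinases, cyclins and other factors of mitotic entry, 8 genes of the spindle checkpoint and anaphase, 4 of the chromosomal passenger complex, 10 of the centromere and kinetochore, 9 spindle motors and microtubule-associated proteins, 6 of cytokinesis and 9 of chromosome structure.

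Their RNA was measured in CD4+ T cells of the small intestine lamina propria (SILP), the connective tissue below the gut epithelium. All mice carried the T-bet-ZsGreen reporter, in which a green fluorescent protein reports expression of T-bet, the transcription factor of Th1 cells, and no group lacked it. Mice labelled SPF (specific pathogen-free) had a gut flora, those labelled GF (germ-free) did not, and each received aCD3, an antibody that engages the CD3 part of the T cell receptor, or an isotype control antibody. Live CD45+ CD90.2+ TCRb+ CD4+ cells were sorted, by a gate that does not name the reporter, which gave 28 libraries: of SPF mice 6 with isotype and 6 with aCD3, of GF mice 10 with isotype and 6 with aCD3. The dose of antibody and the time after it are not given in the sources used here, nor is it said whether a library is 1 mouse, so the p-values below measure the spread between these libraries. Libraries are named by group and by the letter and number in their sample names (F1, M1 and so on).

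Cells enter mitosis when cyclin-dependent kinase 1, bound to an A or B type cyclin, is freed of its inhibitory phosphates by CDC25 phosphatases. The chromosomes are then compacted by condensin and topoisomerase II, attached to spindle microtubules through the kinetochore, and held by the spindle checkpoint until every kinetochore is attached. CDC20 next turns the anaphase-promoting complex (APC/C) on B type cyclins and on securin, separase cuts cohesin, and a central spindle guides the division of the cytoplasm. Most of these genes are transcribed in a wave in G2 by the MuvB complex with B-MYB and FOXM1, and are held silent in resting cells by the same MuvB core in the DREAM complex. Resting memory T cells of the gut wall divide rarely, whereas engagement of the T cell receptor can bring T cells into cycle.

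Values are TPM, transcript abundances scaled to library total, as deposited by the authors. The table divides each gene by its genomic span, so levels are compared here within a gene and not between genes. TPM times length fell on whole multiples of 1 step in each library, and the sum of these recovered counts was 6765529 to 17860617 per library. Even multiples were 1.98 to 3.03 times as frequent as odd ones, so a step may be less than a whole read and the recovered counts may exceed the number of reads. The median over genes of a gene's median recovered count was 252, and 1 gene, Cenpm, was at 0 in any library. In SPF isotype F2, 14071 genes were above 0, against 14922 to 16760 in the other 27 libraries; results that involve this group were also computed without it. The T cell markers were present throughout, with Cd3e at 274 to 430.5 TPM and Cd4 at 166 to 275 TPM over all 28 libraries.

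The 57 genes took a larger share of the library under aCD3 in SPF mice. In the SPF isotype libraries they held 0.147% to 0.239% of recovered counts (median 0.188%), and in the SPF aCD3 libraries 0.865% to 0.928% (median 0.877%). The GF isotype libraries ranged from 0.145% to 0.300% (median 0.231%). In the sample numbers of the files the GF libraries fall into 2 runs, 1 with M1, M2 and M3 of aCD3 and 6 isotype libraries (F1, F2, F3, M1, M2 and M3), and 1 with F1, M4 and M5 of aCD3 and 4 isotype libraries (F4, F5, M4 and M5). The isotype libraries of the first GF run held 0.230% to 0.300% and those of the second 0.145% to 0.188%, with no overlap. The GF aCD3 libraries divided into 0.872% in M1, 0.958% in M2 and 0.875% in M5 on one side, and 0.171% in F1, 0.190% in M4 and 0.288% in M3 on the other. By this share 3 of 6 GF aCD3 libraries lay at the level of the SPF aCD3 libraries and 3 within the range of GF isotype; by share of TPM, M3 at 0.161% was above the highest GF isotype library, at 0.148%. Within its own run, by share of recovered counts, M4 was just above the highest isotype library and F1 and M3 were within the range. In bulk RNA, fewer cells that express a gene and less of its RNA per cell cannot be told apart.

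**Figure D1:**
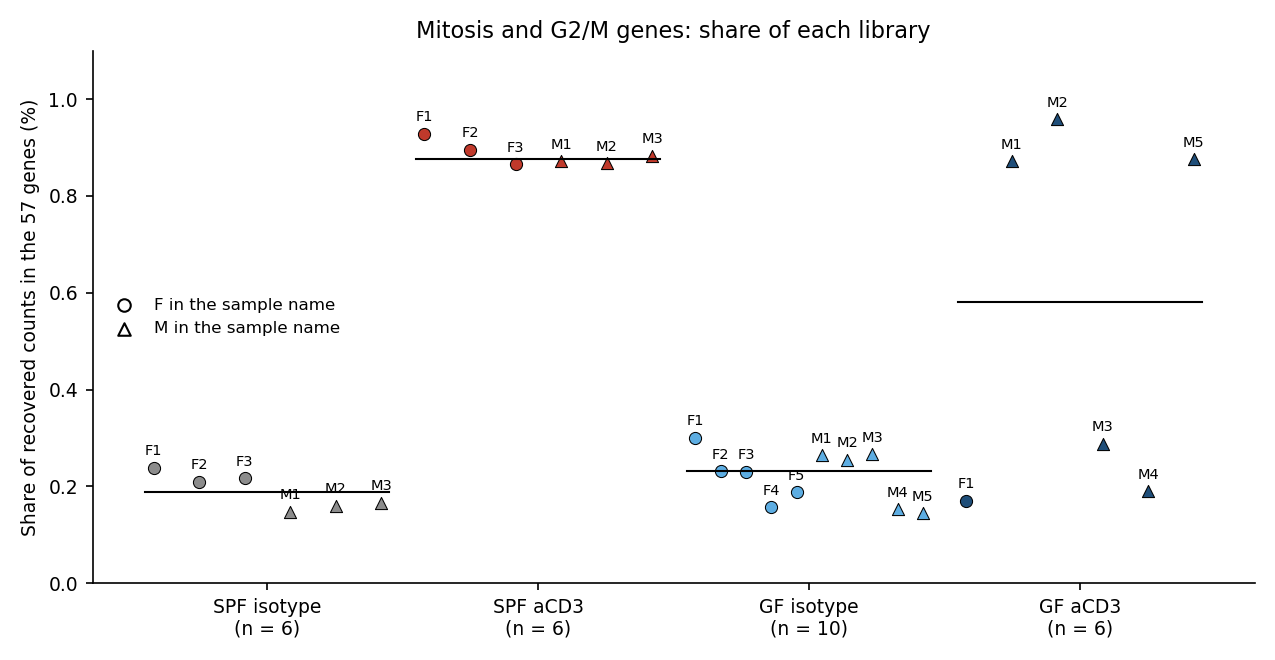
Share of recovered counts (%) in the 57 genes, 1 point per library, by group. Circles and triangles mark F and M in the sample name and the bars are group medians. All 6 SPF aCD3 libraries lie above 0.8%, as do GF aCD3 M1, M2 and M5, while GF aCD3 F1, M3 and M4 lie, by this measure, within the range of all 10 GF isotype libraries.

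In SPF mice, 55 of the 57 genes rose under aCD3, 1 fell (Pttg1) and 1 did not pass the test (Ncapd2). The test was limma on log2(TPM + 1) over all 12182 genes with at least 1 TPM in at least 6 libraries, with a term for the F or M letter and p-values adjusted by Benjamini-Hochberg over all of them. By the same test 14.2% of all genes rose (1726) and 50.7% fell (6172). The median log2 fold change was 2.15 over the 57 genes and −0.35 over all genes tested. Scaling by the median of ratios, which moves the median of all genes to −0.0081, changed the split of all calls to 3727 higher and 3575 lower and gave a median of 2.54 over the 57 genes.

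For each of the 55 genes that rose, all 6 SPF aCD3 libraries lay above all 6 SPF isotype libraries. The share of all genes that separated in this way was not computed, so the separation is not read as particular to these genes. The mean TPM of the aCD3 group was more than 2 times that of isotype for 53 genes and more than 4 times for 41, with a median ratio of 5.18 and a highest of 9.35, in Espl1. Adjusted p-values (limma, Benjamini-Hochberg) of the 56 genes that passed ran from 1.13e-07 in Cenpa to 4.27e-04 in Smc4. The counts of 55 and 1 were the same without any 1 of the 12 SPF libraries, SPF isotype F2 included.

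**Figure D2:**
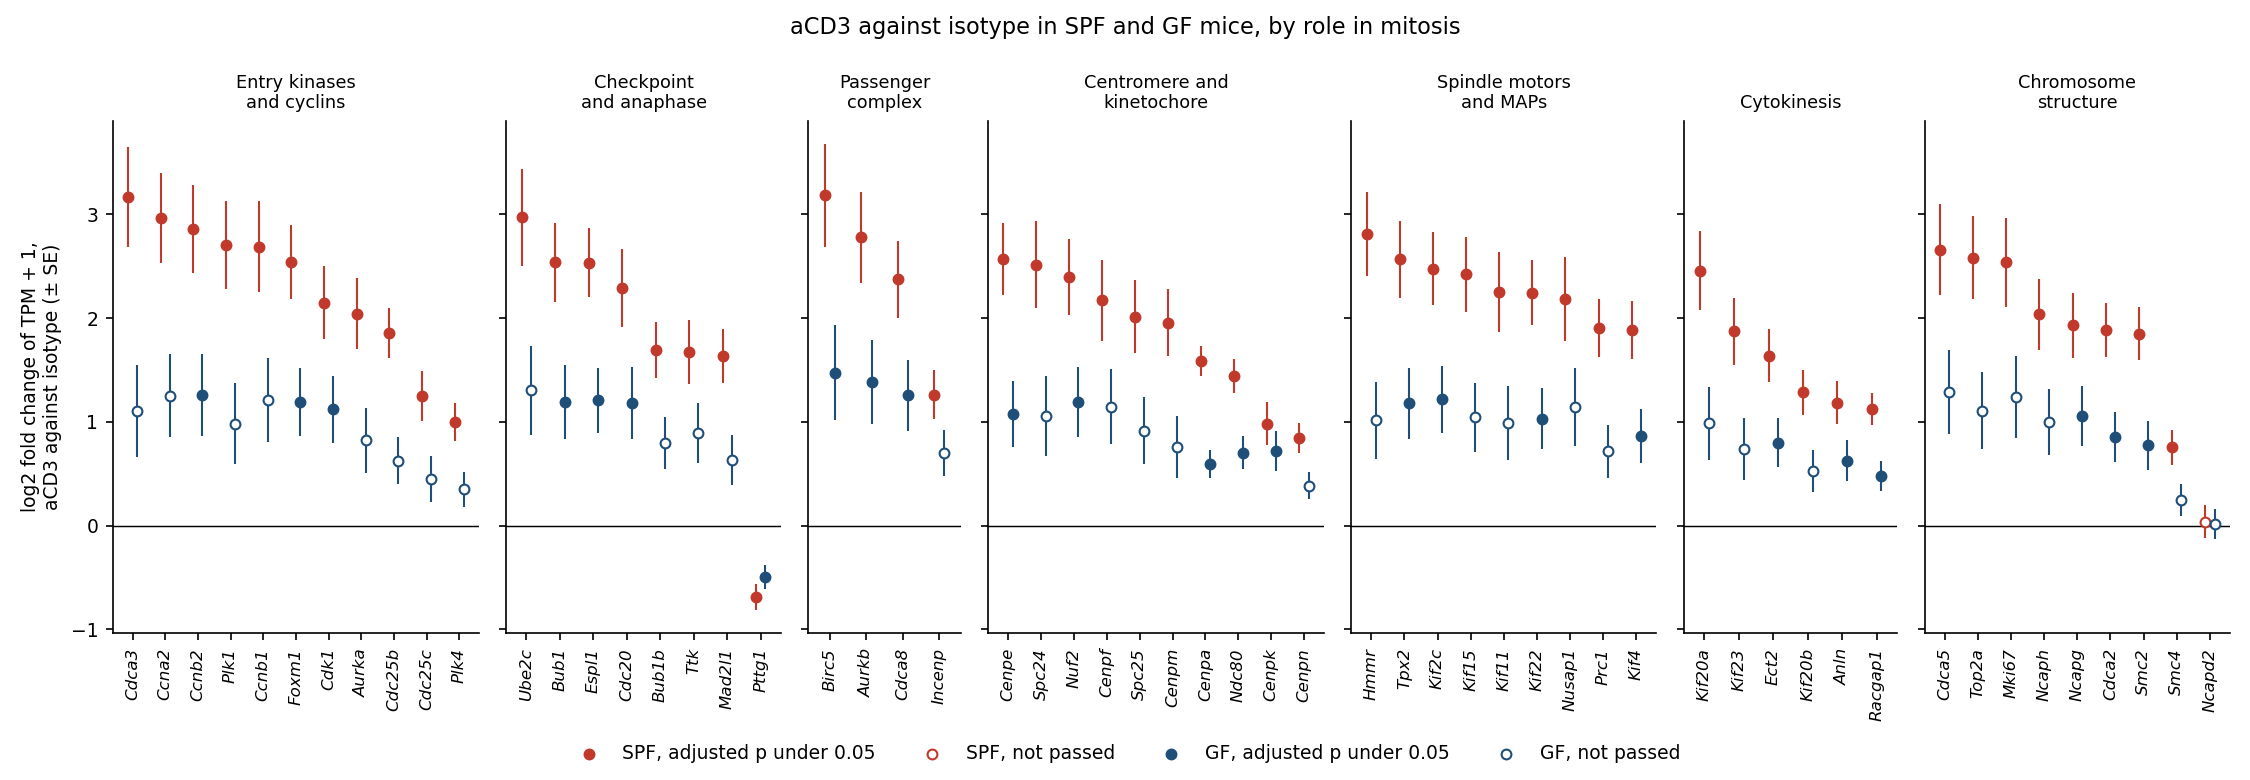
Log2 fold change of TPM + 1 (± SE from limma) under aCD3 against isotype for each gene, by role, in SPF (red) and GF (blue) mice. Filled points passed an adjusted p of 0.05. Pttg1 lies below 0 and Ncapd2 next to 0 in both; in SPF the other 55 genes lie above 0 and are filled, and in GF they lie above 0 at smaller sizes, 24 of them filled.

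All 11 genes of mitotic entry rose in SPF, with a median log2 fold change of 2.54. Cdk1, the kinase that drives entry, stood at 1.88 to 7.46 TPM (median 3.49) under isotype and 17.0 to 21.1 TPM (median 19.4) under aCD3, a log2 fold change of 2.15 ± 0.35 (SE). Ccnb1, the B type cyclin that pairs with it, stood at 3.03 to 10.4 TPM (median 4.64) under isotype and 36.0 to 42.5 TPM (median 38.8) under aCD3, with 2.69 ± 0.44. Every aCD3 library was above every isotype library for both genes. Ccnb2, the second B type cyclin, rose by 2.86 ± 0.425 with 3.04 to 10.6 TPM (median 5.78) under isotype and 42.9 to 50.3 TPM (median 46.9) under aCD3. Ccna2, cyclin A, which acts from S phase to early mitosis, rose by 2.97 ± 0.435, with 13.6 to 39.0 TPM (median 18.1) under isotype and 157 to 193 TPM (median 174) under aCD3. Cdca3, which helps degrade the mitosis inhibitor WEE1, had the highest log2 fold change of the role at 3.165 ± 0.48, with 6.32 to 26.5 TPM (median 8.55) against 87.2 to 121 TPM (median 98.3). The isotype libraries varied widely among themselves for Cdca3, yet none reached the lowest aCD3 library.

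Plk1, a kinase needed for centrosome maturation and for many later steps of mitosis, stood at 2.26 to 6.38 TPM (median 3.94) under isotype and 28.4 to 33.1 TPM (median 30.1) under aCD3, a log2 fold change of 2.70 ± 0.42. Aurka, the spindle pole kinase, stood at 2.20 to 4.95 TPM (median 3.53) and 15.8 to 20.6 TPM (median 17.6), a log2 fold change of 2.04 ± 0.34. Foxm1, the transcription factor of the G2 wave, rose by 2.54 ± 0.36, with 2.61 to 8.98 TPM (median 4.07) under isotype and 25.7 to 33.5 TPM (median 30.2) under aCD3. None of the 3 genes overlapped between the groups. The smallest rises of this role were in Plk4, the kinase of centriole duplication, at 1.00 ± 0.18, and in the phosphatase Cdc25c at 1.25 ± 0.24, whose isotype level of 0.253 to 1.06 TPM (median 0.813) lay near the pseudocount of 1. Cdc25b, the phosphatase that starts CDK1 activation, rose by 1.86 ± 0.24 with 3.86 to 12.4 TPM (median 8.66) under isotype and 27.7 to 36.6 TPM (median 32.2) under aCD3.

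Of the 8 checkpoint and anaphase genes, 7 rose and 1 fell in SPF, with a median of 1.99. Bub1, a checkpoint kinase at kinetochores, stood at 0.780 to 3.04 TPM (median 1.84) under isotype and at 12.4 to 16.4 TPM (median 15.2) under aCD3, a mean ratio of 8.23 and a log2 fold change of 2.54 ± 0.38. Cdc20, the activator of the APC/C, stood at 5.54 to 18.8 TPM (median 11.7) and 44.8 to 60.0 TPM (median 57.6), a log2 fold change of 2.29 ± 0.38. Ube2c, an enzyme that hands ubiquitin to the APC/C, had the highest value of the role, 2.97 ± 0.47, with 15.5 to 46.6 TPM (median 20.1) against 146 to 209.9 TPM (median 189). The groups did not overlap for any of them. The remaining checkpoint genes Bub1b, Mad2l1 and Ttk rose by 1.69, 1.63 and 1.675 on the log2 scale, and separase (Espl1) by 2.535.

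Pttg1, which encodes securin, the inhibitor of separase, went the other way. It stood at 24.4 to 41.6 TPM (median 33.8) under isotype and at 17.5 to 22.2 TPM (median 20.0) under aCD3 in SPF. All 6 aCD3 libraries were below all 6 isotype libraries. The log2 fold change was −0.69 ± 0.13 (limma adjusted p = 6.13e-05), against −0.35 for the median gene. After median-of-ratios scaling Pttg1 was at −0.28 (limma adjusted p = 0.00527) and remained lower. Thus the inhibitor of separase fell while separase itself rose in the same libraries.

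All 4 genes of the chromosomal passenger complex, which corrects faulty attachments and then directs the cleavage furrow, rose in SPF (median 2.57). Birc5 (survivin), which brings the complex to the centromere, had the highest log2 fold change of all 57 genes, 3.18 ± 0.495, with 4.62 to 16.5 TPM (median 8.24) under isotype and 75.8 to 91.1 TPM (median 84.0) under aCD3. Aurkb, the kinase of the complex, stood at 4.84 to 10.9 TPM (median 5.998) and 40.2 to 61.6 TPM (median 54.6), a log2 fold change of 2.78 ± 0.44. Both genes had aCD3 libraries well clear of the isotype range. Incenp, the scaffold that holds the complex together, rose less, by 1.26 ± 0.24, with 11.4 to 23.3 TPM (median 13.4) under isotype and 33.04 to 39.4 TPM (median 35.5) under aCD3. Cdca8 (borealin) rose by 2.37 ± 0.37.

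**Figure D3:**
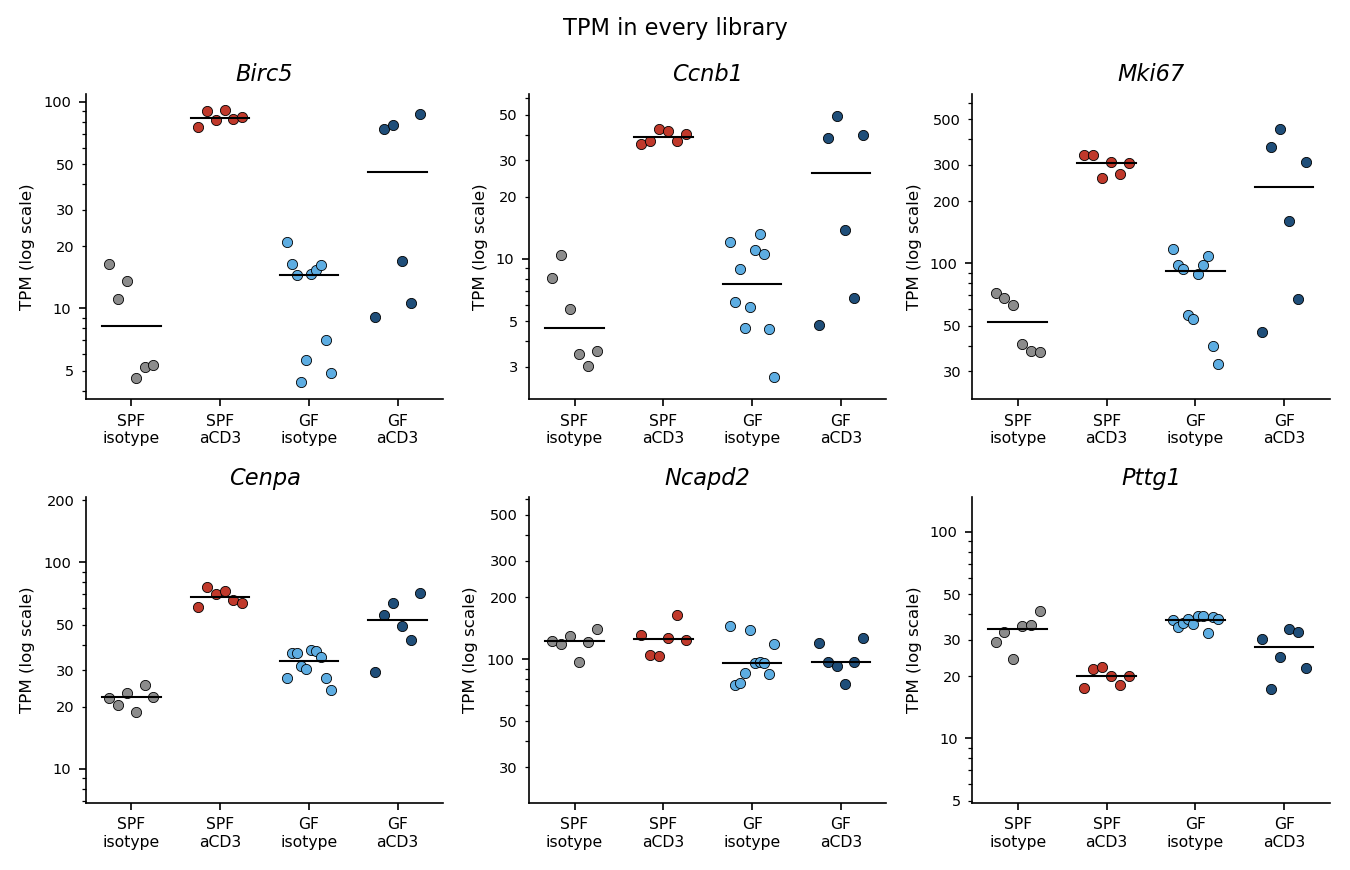
TPM of 6 genes in every library, by group, on log axes that span the same fold range in each panel, with group medians as bars. Birc5, Ccnb1, Mki67 and Cenpa are higher in every SPF aCD3 library than in any SPF isotype library, Pttg1 is lower in every one, and Ncapd2 overlaps between the groups.

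All 10 centromere and kinetochore genes rose in SPF, with a median of 1.98. Cenpa, the histone variant that marks centromeres, stood at 18.8 to 25.5 TPM (median 22.2) under isotype and 61.0 to 75.7 TPM (median 67.9) under aCD3, a log2 fold change of 1.585 ± 0.15. Cenpe, a kinetochore motor that brings chromosomes to the spindle equator, stood at 1.65 to 4.24 TPM (median 2.21) and 16.7 to 20.2 TPM (median 19.6), a log2 fold change of 2.57 ± 0.35. Cenpf, a large outer kinetochore protein, stood at 1.90 to 6.17 TPM (median 3.46) and 17.4 to 21.9 TPM (median 18.9), a log2 fold change of 2.17 ± 0.39. The isotype and aCD3 ranges were apart for each of them. The 4 subunits of the NDC80 complex, which grips microtubules, rose by 1.44 (Ndc80), 2.395 (Nuf2), 2.52 (Spc24) and 2.01 (Spc25) on the log2 scale. Ndc80 stood at 2.92 to 6.42 TPM (median 3.99) under isotype and 10.9 to 14.2 TPM (median 13.4) under aCD3. Cenpn and Cenpk, of the constitutive centromere network, rose least, by 0.84 and 0.98. Cenpm, of the same network, rose by 1.955 and was listed at 0 in SPF isotype M2 and at no more than 3.56 TPM in the group.

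All 9 spindle motors and microtubule-associated proteins rose in SPF (median 2.25). Kif11, the motor that pushes the spindle poles apart, stood at 4.15 to 10.7 TPM (median 6.42) under isotype and 31.9 to 37.3 TPM (median 35.9) under aCD3, a log2 fold change of 2.25 ± 0.39. Tpx2, which activates Aurora A and nucleates microtubules, stood at 2.04 to 4.53 TPM (median 2.59) and 20.46 to 23.2 TPM (median 21.6), a log2 fold change of 2.565 ± 0.37. Nusap1, a microtubule bundling protein, stood at 3.02 to 9.92 TPM (median 4.59) and 23.4 to 29.1 TPM (median 26.2), a log2 fold change of 2.18 ± 0.41. For all 3 the lowest aCD3 library was more than 2 times the highest isotype library. The other 6, Hmmr, Kif2c, Kif15, Kif22, Prc1 and Kif4, rose by 1.89 (Kif4, a chromosome arm motor) to 2.81 (Hmmr, a spindle pole protein).

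All 6 genes of cytokinesis rose, with the lowest median of the 7 roles, 1.46. Kif20a, a motor that carries the passenger complex to the central spindle, rose most, by 2.46 ± 0.38. Kif20b, a related motor of late cytokinesis, stood at 2.52 to 4.36 TPM (median 3.13) under isotype and 8.85 to 10.0 TPM (median 9.16) under aCD3, a log2 fold change of 1.28 ± 0.22. Racgap1, Anln and Ect2, which set up and constrict the actin ring, rose by 1.12, 1.19 and 1.635 on the log2 scale. Kif23, the motor partner of RACGAP1 at the midzone, rose by 1.87.

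Of the 9 chromosome structure genes, 8 rose in SPF and 1 did not pass the test (median 1.93). Mki67, the proliferation marker that coats mitotic chromosomes, stood at 37.2 to 71.6 TPM (median 51.9) under isotype and 258 to 335 TPM (median 307) under aCD3, a log2 fold change of 2.54 ± 0.43. Top2a, the topoisomerase that untangles sister chromatids, stood at 17.0 to 36.1 TPM (median 24.8) and 141 to 166 TPM (median 153), a log2 fold change of 2.58 ± 0.40. Neither gene overlapped between the groups. Cdca5 (sororin), which protects cohesin, rose by 2.66, and Cdca2, a phosphatase partner on chromosomes, by 1.89.

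The 5 condensin genes of the list did not move by like amounts. Ncaph, Ncapg and Smc2 rose by 2.035, 1.93 and 1.85 on the log2 scale. Smc4, the partner of SMC2 in the ring, rose by 0.755 ± 0.17, with 44.4 to 68.8 TPM (median 58.4) under isotype and 90.4 to 113 TPM (median 97.2) under aCD3. Ncapd2, a condensin I subunit, stood at 97.2 to 139 TPM (median 122) under isotype and 104 to 164 TPM (median 125) under aCD3, with overlapping groups and a log2 fold change of 0.04 ± 0.16 (limma adjusted p = 0.839). After median-of-ratios scaling it was at 0.46 (limma adjusted p = 0.0449). In the annotation, 3.78% of the exonic bases of Ncapd2 are shared with Scarna10, a small RNA gene on the same strand that reached 3526 TPM in 1 library; reads of the 2 genes may not be told apart, and the part of Scarna10 in the Ncapd2 values was not tested. Exons of 17 of the 57 genes overlap another annotated gene, with the largest shares in Kif20a (29.3% with Cdc23) and Ube2c (22.8% with Tnnc2). Whether the counting used strand is not given in the sources used here.

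Sequences of the start regions are shown because 55 of the genes rose together. Promoter windows of 300 bases (250 before and 50 after the start) were available from RefSeq (GRCm38.p6) for 47 of the 57 genes, in 51 windows; in 45 of these, of 45 genes, the start is that of the transcript measured here. The cell cycle homology region (CHR), the element bound by the MuvB complex, was searched as TTTGAA and the box bound by NF-Y as CCAAT, each on both strands. TTTGAA was present in 70.6% of the 51 windows, against 17.9% of all 32851 windows of the same length, and CCAAT in 74.5% against 37.4%. Both were present in 58.8% against 6.95%, and in 62.2% of the 45 windows with the measured start. The CHR variant TTTAAA was present in 19.6% against 13.2%. A match is a description of letters, not a bound site. The 200 bases before the start are given 5′ to 3′ on the gene's strand, with matches to any of these motifs on either strand in capitals (CCAATTGG is 2 overlapping CCAAT matches), for the 4 matched genes with the highest SPF log2 fold change, then for Ncapd2, which did not pass the test. This stretch is shorter than the windows counted above. The start on which the window of Pttg1 is built lies 270 bases inside its measured transcript, and that window is not shown. The stretches lie at chr11:117849037-117849236 on the plus strand (Birc5), chr6:124829976-124830175 on the plus strand (Cdca3), chr2:164769729-164769928 on the plus strand (Ube2c), chr9:70421555-70421754 on the minus strand (Ccnb2) and chr6:125191587-125191786 on the minus strand (Ncapd2).
Birc5: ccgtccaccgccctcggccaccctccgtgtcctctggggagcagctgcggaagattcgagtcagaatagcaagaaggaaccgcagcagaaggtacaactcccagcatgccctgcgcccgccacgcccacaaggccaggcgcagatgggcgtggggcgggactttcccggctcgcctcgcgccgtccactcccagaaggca
Cdca3: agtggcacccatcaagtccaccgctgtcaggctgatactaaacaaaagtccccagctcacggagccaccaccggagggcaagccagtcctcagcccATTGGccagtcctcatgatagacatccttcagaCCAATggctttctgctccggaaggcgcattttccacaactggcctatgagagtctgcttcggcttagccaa
Ube2c: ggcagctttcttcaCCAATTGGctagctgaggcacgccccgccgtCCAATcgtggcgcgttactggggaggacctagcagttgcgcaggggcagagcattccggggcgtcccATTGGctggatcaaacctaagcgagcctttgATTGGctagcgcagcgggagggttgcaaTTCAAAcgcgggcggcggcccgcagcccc
Ccnb2: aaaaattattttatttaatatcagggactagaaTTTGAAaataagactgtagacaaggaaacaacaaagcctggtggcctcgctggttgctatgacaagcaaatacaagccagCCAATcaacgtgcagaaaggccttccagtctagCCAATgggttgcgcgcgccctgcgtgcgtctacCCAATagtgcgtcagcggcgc
Ncapd2: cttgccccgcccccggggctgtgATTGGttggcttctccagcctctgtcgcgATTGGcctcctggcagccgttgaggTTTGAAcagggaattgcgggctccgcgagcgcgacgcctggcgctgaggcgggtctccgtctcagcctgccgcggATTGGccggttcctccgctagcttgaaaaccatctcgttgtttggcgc
Ube2c and Ccnb2, which rose, and Ncapd2, which did not pass the test, each hold both elements in this stretch. Cdca3 holds 2 CCAAT boxes here, and its 300-base window also holds another that spans the start, and TTTGAA after the start. Birc5 holds no match here and TTTAAA farther upstream in its window.

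Other genes of mitosis that are not among the 57 were read from 6 further lists. Of 27 other spindle and cytokinesis genes, 24 rose and 1 fell in SPF (median log2 fold change 1.79); Pbk, a mitotic kinase, rose by 2.70 and Cep55, an abscission protein, by 2.69, whereas Kif18a rose by 0.53 and Kif3b, a motor of cilia and transport, fell by 0.55. Of 32 other centromere and kinetochore genes, 23 rose and 2 fell (median 1.00); Knl1, the kinetochore scaffold, rose by 2.38 and Sgo2a, a shugoshin, by 2.18, whereas Zwint fell by 1.02 and Mad1l1 fell by 0.63. Of 17 other genes of the APC/C, 6 rose and 2 fell (median 0.06). Fbxo5 (EMI1), which inhibits the APC/C, rose by 2.17 and Anapc15 by 1.85, whereas Ube2s was at −0.45 and Anapc10 at −0.26. After median-of-ratios scaling these 2 were at −0.04 and 0.018 and did not pass, and 14 of the 17 rose and 0 fell by limma.

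Of 13 other cohesin and condensin genes, 5 rose and 5 fell in SPF (median −0.04), with Ncapg2 of condensin II at 2.18 and Smc1a at 0.50, and the cohesin loaders Mau2 at −0.95 and Nipbl at −0.88. Of 14 regulators of entry and MuvB partners, 9 rose and 2 fell (median 0.60), with E2f8 at 2.58 and Mybl2 (B-MYB) at 1.67, and Rbl2 (p130, of the DREAM complex) at −0.87 and Lin52 at −0.51. Of 14 tested CDK inhibitor and G1 genes, 5 rose and 3 fell (median −0.003). Ccne1 (cyclin E) rose by 2.45 and Cdkn2c (p18) by 1.78, whereas Cdkn1b (p27) fell by 1.13 and Ccnd2 (cyclin D2) fell by 0.76. The medians of the APC/C, cohesin and G1 lists, 0.06, −0.04 and −0.003, lay beside −0.35 for all genes and 2.15 for the 57 genes. After median-of-ratios scaling they were 0.47, 0.37 and 0.41, beside −0.0081 and 2.54, with 8 of 13 cohesin and condensin genes and 8 of 14 G1 genes higher and 3 and 2 lower.

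Markers of other cells differed between the same SPF groups. The summed TPM of 6 B and plasma cell markers was 94.8 to 265 under isotype and 2.55 to 8.82 under aCD3, with Jchain at 87.4 to 259 TPM under isotype and at 0.128 to 1.55 TPM under aCD3. Of the myeloid markers, Cd68 stood at 0 to 9.84 TPM under isotype and 54.5 to 105.8 TPM under aCD3, with Lyz2, Csf1r, Itgam and Adgre1 at no more than 0.503 TPM in any SPF aCD3 library. The sum of 7 stromal and endothelial markers was 14.3 to 37.4 under isotype and 2.96 to 4.80 under aCD3, that of 10 epithelial markers 5.64 to 16.5 and 4.76 to 9.001, and that of 2 CD8 T cell markers 5.68 to 13.5 and 9.75 to 23.8. The erythroid markers Hbb-bs and Hba-a1 were at 0 in all SPF aCD3 libraries. The part of these cells in the result was not tested.

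In GF mice, 24 of the 57 genes rose under aCD3, 1 fell (Pttg1) and 32 did not pass the test. Over all genes 2.46% rose (300) and 4.61% fell (562), or 685 and 500 after median-of-ratios scaling. The median log2 fold change was 0.99 over the 57 genes and −0.15 over all genes, and 1.14 and −0.0064 after that scaling. The adjusted p-values (limma, Benjamini-Hochberg) of the 25 genes that passed lay between 0.0481 and 0.05, and those of 28 of the 32 others between 0.0503 and 0.0885, so the count rests on values next to the threshold. An unadjusted p under 0.05 was found for 54 of the 57 genes and for 4351 of all 12182 genes. The test pools the spread over all groups, whereas GF aCD3 was wider than the others. The SD of the share of recovered counts in the 57 genes was 0.379% in GF aCD3 and 0.024% to 0.0551% in the other groups. With only the groups compared, 0 of the 57 genes passed, and the lowest limma adjusted p over all genes was 0.249.

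By role, 3 of 11 entry genes rose in GF, 3 of 8 checkpoint and anaphase genes, 3 of 4 passenger genes, 5 of 10 centromere and kinetochore genes, 4 of 9 spindle genes, 3 of 6 cytokinesis genes and 3 of 9 chromosome structure genes. Birc5 had the highest value, with 4.38 to 20.9 TPM (median 14.6) under isotype and 9.06 to 87.3 TPM (median 45.6) under aCD3 and a log2 fold change of 1.475 ± 0.46 (limma adjusted p = 0.0499). Aurkb followed at 1.38 ± 0.41, with 2.85 to 12.7 TPM (median 8.88) against 6.17 to 58.9 TPM (median 33.8). The 2 groups overlapped for both genes, since some aCD3 libraries lay within the isotype range. Ube2c at 1.30 ± 0.43 and Cdca5 at 1.29 ± 0.40 were next in size and did not pass (limma adjusted p = 0.0560 and 0.0503).

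Among the entry genes, Cdk1, Ccnb2 and Foxm1 rose in GF, by 1.12, 1.26 and 1.19 on the log2 scale. Cdk1 stood at 2.77 to 7.28 TPM (median 5.18) under isotype and 3.60 to 23.8 TPM (median 15.1) under aCD3. Ccna2 at 1.25 ± 0.40, Ccnb1 at 1.21 ± 0.41, Plk1 at 0.98 ± 0.39 and Aurka at 0.82 ± 0.315 did not pass. For Ccnb1 the isotype libraries lay at 2.68 to 13.2 TPM (median 7.55) and the aCD3 libraries at 4.80 to 49.2 TPM (median 26.1). Among the other roles Bub1 rose by 1.19, Cdc20 by 1.18, Cenpe by 1.07, Ndc80 by 0.70 and Tpx2 by 1.18. Values of Incenp (0.70), Cenpf (1.15), Kif11 (0.99), Nusap1 (1.14), Kif20b (0.52), Mki67 (1.24) and Top2a (1.11) did not pass. Plk4 (0.35), Smc4 (0.25) and Ncapd2 (0.02 ± 0.14) were the closest to 0 and did not pass. Ncapd2 stood at 75.3 to 146 TPM (median 96.1) under isotype and 75.8 to 126 TPM (median 97.2) under aCD3, with overlapping groups.

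The GF aCD3 libraries M1, M2 and M5 stood apart from the other 3 in nearly every gene. Mki67 stood at 368 TPM in M1, 447 in M2 and 311 in M5, at 159.7 in M3, and at 46.4 in F1 and 67.6 in M4, beside 32.6 to 118 TPM (median 91.4) under GF isotype. Birc5 stood at 74.2, 77.2 and 87.3 TPM in M1, M2 and M5, at 16.9 in M3, and at 9.06 and 10.6 in F1 and M4. M1, M2 and M5 were the 3 highest GF aCD3 libraries for 55 of the 57 genes, and each of them was above all 10 GF isotype libraries for 55 genes. M3 was above all of them for 34 genes, M4 for 1 (Cenpa) and F1 for 0. Against the 4 isotype libraries of their own run, M4 was above all for 36 genes and F1 for 17. The share of all genes above the same isotype libraries was not computed for any of these counts. A range of 4 libraries is also easier to exceed than a range of 10, so the counts are a description only. Against the median of all 10 GF isotype libraries, the median log2 ratio over the 57 genes was 1.84 in M1, 1.92 in M2, 1.74 in M5, 0.44 in M3, −0.25 in M4 and −0.49 in F1. Against the isotype median of the same run it was 1.65, 1.75, 2.31, 0.29, 0.27 and 0.039 in that order, so the negative values were not found within the run. These libraries are described and not grouped, since that division is itself the outcome.

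**Figure D4:**
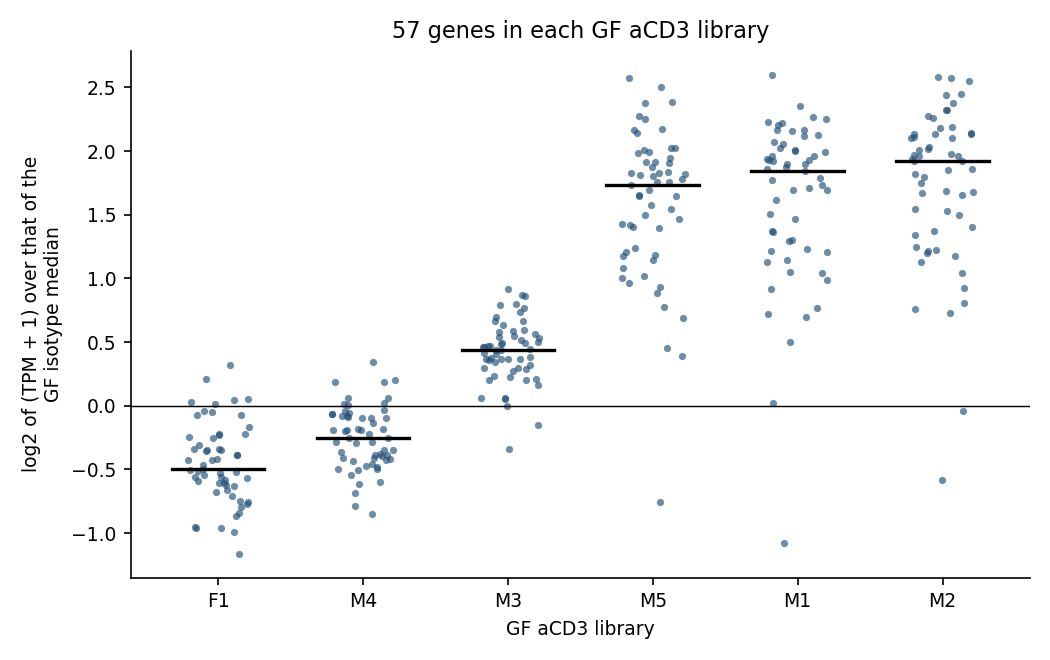
Log2 ratio of TPM + 1 in each GF aCD3 library to TPM + 1 at the GF isotype median, 1 point per gene (57 genes) with sideways scatter added for legibility, and the median over genes as a bar. M1, M2 and M5 have medians of 1.84, 1.92 and 1.74, M3 of 0.44, and M4 and F1 of −0.25 and −0.49; the median is over both runs of isotype libraries, and against their own run M4 and F1 are at 0.27 and 0.039.

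Recovered counts per library overlapped across that division. They were 7804789 in M1, 12272949 in M2 and 8155657 in M5, and 17793840 in M3, 9778475 in M4 and 11166209 in F1. The part of depth was not tested. Genes above 0 numbered 15134, 15622 and 15345 in M1, M2 and M5 and 15825 to 16455 in the others, beside 14922 to 16760 under GF isotype. Lag3, a gene outside the 57, was at 498, 452 and 527 TPM in M1, M2 and M5. It was at 9.59 to 17.0 TPM in the others, beside 5.41 to 18.5 TPM under GF isotype, so the division was not confined to the 57 genes. The summed B and plasma cell markers were 6.67 to 95.0 TPM in the 6 libraries, highest in M3, beside 10.99 to 111 TPM under GF isotype. Cd68 was 44.2, 46.7 and 58.0 TPM in M1, M2 and M5, and 8.33 to 13.1 TPM in the other 3, beside 3.29 to 18.4 TPM under GF isotype; their part in the result was not tested. Without 1 GF aCD3 library the number of the 57 genes that passed was 56 without F1, 55 without M4, 50 without M3, and 0 without M1, M2 or M5. Of all genes 29.8%, 31.7% and 34.6% passed without F1, M4 and M3, with 8.18%, 7.59% and 6.63% higher. Without M1, M2 or M5 the share was 0%, beside 7.08% (2.46% higher) in the main fit. Leaving out any 1 of the 10 GF isotype libraries also gave 0 by limma, with 52 to 55 of the 57 genes at an unadjusted p under 0.05 and a lowest adjusted p over all genes of 0.0540 to 0.0820. In those fits 3894 to 4318 of all 12182 genes had an unadjusted p under 0.05. Within the 2 GF runs the median log2 fold change was 1.24 and 0.94, above 0 for 55 and 56 of the 57 genes, and 0 genes passed in either by limma, with 56 and 43 at an unadjusted p under 0.05. Of all 12182 genes, 3414 and 1530 had an unadjusted p under 0.05 within the runs. With the run as a covariate over both, 53 of the 57 passed (52 higher and 1 lower), where 18.2% of all genes passed (5.99% higher and 12.2% lower).

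Pttg1 in GF stood at 32.3 to 39.3 TPM (median 37.7) under isotype and at 17.3 to 33.9 TPM (median 27.6) under aCD3, a log2 fold change of −0.50 ± 0.12 (limma adjusted p = 0.0482). It was 17.3 TPM in M1, 21.9 in M5, 24.9 in M2 and 30.3 in F1, all below the isotype range, and 32.95 in M4 and 33.9 in M3, within it. M1, M2 and M5, the highest libraries for most of the other genes, were the lowest for securin. After median-of-ratios scaling the value was −0.33 (limma adjusted p = 0.0399). It passed in 10 of 29 alternatives, with log2 fold changes of −0.60 to −0.33 and limma adjusted p-values of 0.00347 to 0.386.

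Under isotype, most of the 57 genes did not pass a test between GF and SPF, and the count depends on the fit. In all, 1 was higher in GF, Cenpa, and 0 were lower by limma, with 5 at an unadjusted p under 0.05, beside 3110 of all 12182 genes. With array weights 13 of the 57 were higher (36 at an unadjusted p under 0.05), and with only the groups compared 6 (22), where 13.8% and 13.7% of all genes were higher. Of all genes, 3819 and 4012 had an unadjusted p under 0.05 in these fits. Without weights and over all libraries, 6.42% of all genes were higher (782) and 0.755% lower (92), or 66 and 133 after median-of-ratios scaling. Cenpa stood at 18.8 to 25.5 TPM (median 22.2) in SPF isotype and at 24.1 to 37.5 TPM (median 33.1) in GF isotype, with 1 GF library below the highest SPF library. Its log2 difference was 0.52 ± 0.13 (limma adjusted p = 0.0181), and 0.37 (limma adjusted p = 0.354) after that scaling. The log2 difference was above 0 for 56 of the 57 genes, with a median of 0.39 beside 0.15 for all genes, or 0.26 beside 0.013 after the scaling. The highest were Cdca3 (0.77 ± 0.43), Spc24 (0.66 ± 0.37), Ccna2 (0.64 ± 0.39) and Hmmr (0.64 ± 0.36), and the lowest Ncapd2 (−0.285 ± 0.14), Cenpk (0.07 ± 0.19), Incenp (0.09 ± 0.21) and Smc4 (0.16 ± 0.15), none of which passed. Incenp and Cenpk changed sign with that scaling, to −0.06 and −0.05. Markers of other cells differed between these groups: the stromal and endothelial sum was 14.3 to 37.4 TPM in SPF and 7.51 to 13.5 TPM in GF, and the B and plasma cell sum 94.8 to 265 TPM and 10.99 to 111 TPM; their part in the result was not tested.

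The isotype libraries varied among themselves. In SPF, the 3 F libraries held 0.209% to 0.239% of recovered counts in the 57 genes and the 3 M libraries 0.147% to 0.166%; SPF isotype F1 was the highest of its group for 33 genes and F2 for 17. In GF isotype, F1, of the first GF run, was the highest for 33 genes and M5, of the second, the lowest for 41, beside the division of the shares by run given above. Colonisation and the run of sample numbers cannot be told apart, since all SPF libraries come from 1 run of numbers and all GF libraries from the other 2.

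Under aCD3, 27 of the 57 genes were lower in GF than in SPF, 1 was higher (Pttg1) and 29 did not pass. After median-of-ratios scaling 48 were lower and 0 higher by limma, whereas 0 passed with array weights (limma, with 1 at an unadjusted p under 0.05) and 4, all lower, with only the groups compared. With array weights 30.2% of all genes passed (1.63% lower), and 5239 of 12182 had an unadjusted p under 0.05. With only the groups compared 37.6% of all genes passed (2.44% lower). The B and plasma cell sum was 2.55 to 8.82 TPM in SPF aCD3 and 6.67 to 95.0 TPM in GF aCD3, and Cd68 54.5 to 105.8 TPM and 8.33 to 58.0 TPM; their part in the result was not tested. Over all genes 48.9% were higher (5953) and 4.46% lower (543), or 1927 and 2059 after median-of-ratios scaling. The median log2 difference was −0.76 over the 57 genes and 0.34 over all genes, or −1.15 and 0.00022 after that scaling. Birc5 was lowest, at −1.40 ± 0.51, with 75.8 to 91.1 TPM (median 84.0) in SPF and 9.06 to 87.3 TPM (median 45.6) in GF, followed by Cdca3 (−1.29 ± 0.49), Ube2c (−1.21 ± 0.48) and Aurkb (−1.20 ± 0.45). The GF aCD3 libraries of Birc5 ran from within the GF isotype range up to the SPF aCD3 range, with M5 (87.3 TPM), M2 (77.2) and M1 (74.2) near or in the latter. Plk4 (−0.235), Cenpk (−0.19) and Cenpn (−0.09) were closest to 0 and did not pass. Pttg1 was 0.365 ± 0.13 (limma adjusted p = 0.0213), and −0.03 after median-of-ratios scaling, where it did not pass. The number of genes that passed was 0 without GF aCD3 F1, 1 without M4, 3 without M3, 49 without M1, 51 without M2 and 44 without M5, and 16 or 17 without SPF aCD3 F2, F3, M1, M2 or M3. Without the GF aCD3 libraries, in the same order, 40.1%, 44.1%, 43.5%, 57.1%, 56.9% and 59.4% of all genes passed, with 2.23%, 2.84%, 3.05%, 5.76%, 6.06% and 5.86% lower. Without those SPF aCD3 libraries 47.4% to 51.6% of all genes passed, with 3.6% to 4.26% lower.

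The difference between the GF and SPF responses to aCD3 was tested as an interaction in the same fit. It passed for 2 of the 57 genes, both with a smaller rise in GF, and for 0 in the other direction; after median-of-ratios scaling it passed for 13, and with voom on recovered counts for 17, all with a smaller rise in GF, where 6.52% and 6.53% of all genes passed with a negative value. Over all genes it was positive for 2.44% (297) and negative for 1.04% (127), or 629 and 794 after median-of-ratios scaling. The median interaction was −1.14 over the 57 genes and 0.20 over all genes. An unadjusted p under 0.05 was found for 48 of the 57, beside 3911 of all 12182 genes. Cenpa was −0.99 ± 0.20 on the log2 scale (limma adjusted p = 0.0144): it rose by 1.585 in SPF and by 0.59 in GF, where it stood at 24.1 to 37.5 TPM (median 33.1) under isotype and 29.4 to 71.3 TPM (median 52.4) under aCD3. Cdc25b was −1.23 ± 0.33 (limma adjusted p = 0.0412), with 1.86 in SPF and 0.63 in GF, where it stood at 7.97 to 16.6 TPM (median 11.8) and 11.2 to 34.3 TPM (median 21.0). The largest interactions, those of Cdca3 (−2.06 ± 0.65), Hmmr (−1.80 ± 0.55), Plk1 (−1.72 ± 0.575) and Ccna2 (−1.72 ± 0.59), did not pass (limma adjusted p from 0.0556 to 0.0702). At the other end Cenpn (−0.455), Cenpk (−0.26), Ncapd2 (−0.02) and Pttg1 (0.19, or −0.05 after median-of-ratios scaling) did not pass either. The number of genes that passed was 33, 43 and 41 without GF aCD3 M1, M2 and M5 and 14 without SPF isotype F3, while the share of all genes that passed with a negative interaction was 3.91%, 4.99%, 5.27% and 2.34% in these fits and the share that passed in either direction 16.8%, 20.4%, 26.2% and 17.0%. The number of the 57 genes that passed was 1 in 20 of the 28 cases with a library left out. The interaction of Cenpa passed in all 38 alternatives and that of Cdc25b in 15 of them. The 5 comparisons share libraries, so their values are given side by side and are not independent of each other.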

How the data were processed

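RNA of sorted SILP CD4+ T cells was sequenced as single reads, with libraries made by a total RNA kit per the series' design text, whereas the labels give the molecule as polyA RNA; which holds was not settled. The deposited values are TPM, made by the authors with HOMER's analyzeRepeats.pl per the file headers (RNA annotation of mm10, 1 isoform per gene). The aligner and the use of strand are not given in the sources used here. The table has 26 columns of values that match no sample and were not used. Its length column equals the genomic span within 1 base in 99.39% of rows, and TPM sums to 679994 to 786003 per library. TPM times length gave whole multiples of 1 step within a tolerance of 0.1 for 100.0% of low values checked in each library.

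The test was limma (version 3.58.1, R version 4.3.3) with trend on log2(TPM + 1), a pseudocount that understates changes of low genes, over 12182 genes with at least 1 TPM in at least 6 libraries. A mean per group and a term for the F or M letter were fitted on all 28 libraries, with Benjamini-Hochberg adjustment per comparison at 0.05. The fit was run on simulated data as a check of the code. That simulation gave every group the same spread, so it does not test the wider spread of GF aCD3. Tables were handled with pandas (version 2.3.3). The genes, lists and rule for naming were chosen with earlier results of these data known. The rule names 24 fixed genes, the 4 highest and 4 lowest per comparison, and genes that did not pass in SPF. From each related list it names the 2 highest and 2 lowest of the genes that passed in SPF. Alternatives were 2 other pseudocounts, other filters, median-of-ratios scaling, TPM without Rn45s and histone genes, voom on recovered counts, array weights, only the groups compared, a replicate block, the run of sample numbers and leaving out each library.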

Additional observations from a re-analysis of the deposited data

Results flagged for a closer look

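Incenp was at 23.3 TPM in SPF isotype F2, apart from the other 5 SPF isotype libraries at 11.4 to 15.3 TPM. This is the library with the fewest genes above 0. Kif11 was at 31.9 TPM in SPF aCD3 M2, below the other 5 SPF aCD3 libraries at 35.4 to 37.3 TPM. These are the 2 cases among 100 sets of values in which the end library stood apart by Dixon's test at 95%, where chance gives about 1 in 20, or 5.

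The response to aCD3 differed between GF and SPF mice by a test of the interaction for Cdc25b, at −1.23 on the log2 scale, and for Cenpa, at −0.99, both smaller in GF.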

How the results depend on the processing

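The SPF count of 56 genes that passed was 56 to 57 in every alternative with all 57 genes tested, and 54 of the 55 left by a filter of 5 TPM. The share of all genes that passed was 64.8% in the main fit and 41.3% to 72.1% in the alternatives. The GF count, 25, was 0 with a pseudocount of 0.1, without a filter, with only the groups compared, and within either run of sample numbers, 38 without Rn45s and histone genes, 55 with array weights and 53 with the run as a covariate. The share of all genes that passed was 7.08% in the main fit and 0% in the fits with a count of 0. It was 9.35% without Rn45s and histone genes, 29.8% with array weights and 18.2% with the run as a covariate. The GF against SPF isotype count, 1, was 0 with median-of-ratios scaling or voom, 13 with array weights and 6 with only the groups compared. Of all genes 7.17% passed in the main fit, and 1.63%, 3.02%, 15.6% and 14.9% in these fits in that order. The aCD3 count, 28, was 11 without a filter, 48 with median-of-ratios scaling, 52 with voom, 0 with array weights and 4 with only the groups compared. Of all genes 53.3% passed in the main fit (4.46% lower), and 30.4%, 32.7%, 35.7%, 30.2% and 37.6% in these fits in that order. The shares lower were 2.69%, 16.9%, 13.3%, 1.63% and 2.44%. The interaction count, 2, was 4 with a pseudocount of 0.1, 1 without a filter, 13 with median-of-ratios scaling, 5 without Rn45s and histone genes, 17 with voom, 1 with array weights and 8 with the run as a covariate. Of all genes 3.48% passed in the main fit, and 6.35%, 1.13%, 11.7%, 7.5%, 13.3%, 1.31% and 4.57% in these fits in that order. Leaving out 1 library at a time gave 56 to 56 in SPF, 0 to 56 in GF, 1 to 2 for isotype, 0 to 51 for aCD3 and 1 to 43 for the interaction. The share of all genes that passed was then 61.0% to 66.2%, 0% to 34.6%, 2.67% to 8.13%, 40.1% to 59.4% and 0.263% to 26.2% in that order. The cause of these moves was not tested.

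The groups share sample names such as F1 and M1. Of 32 pairs of the same name, 5 deviated together with a correlation over 0.1 (range −0.208 to 0.198). Correlations of single pairs cannot exclude a pairing, and the main fit used none. With the name as a replicate block, 56 genes passed in SPF, 0 in GF, 1 for isotype, 1 for aCD3 and 1 for the interaction. Of all genes 64.0%, 0%, 5.4%, 46.9% and 1.33% passed in that order.

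Signs turned for 5 genes, 1 of which had passed (Pttg1 under aCD3, from 0.365). Ncapd2 in GF was −0.0197 with the replicate block, −0.0103 with the run as a covariate and −0.124 within the first GF run, and its interaction 0.0107 with array weights. For isotype, Cenpk was −0.053 with median-of-ratios scaling, −0.063 with voom and −0.0146 with array weights, and Incenp −0.0616 and −0.00283 with the first 2. For aCD3, Cenpn was 0.00957 with array weights and Pttg1 −0.0309 with median-of-ratios scaling; the interaction of Pttg1 was −0.0516 with that scaling and −0.0216 with voom. With 1 library left out, Ncapd2 ran from −0.0445 to 0.0924 in SPF, −0.058 to 0.0938 in GF and −0.0966 to 0.0755 for the interaction, and for aCD3 Cenpk from −0.316 to 0.025 and Cenpn from −0.202 to 0.0231. The cause was not tested. Depth limits Cenpm, at 0 to 56 recovered counts per SPF isotype library, and Cdc25c, at 8 to 34.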
